A study of Mus musculus with 4 samples.

Results

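Meg3, Rian, Mirg and Dlk1 are genes of the imprinted Dlk1-Dio3 region on mouse chromosome 12, and they were followed here through every probe set that the platform annotation assigns to them. These were 16 of the 28898 probe sets with 1 named gene: 10 for Meg3, 4 for Rian, 1 for Mirg and 1 for Dlk1. They were measured in J1 mouse embryonic stem cells grown without feeder cells in serum and LIF, on 4 Affymetrix arrays with 1 array per condition. The conditions were a Tet1/Tet2 knockdown with PRDM14 overexpression, the same knockdown without it, a scramble control with PRDM14 overexpression, and the scramble control alone. Per the labels, all 4 came from the iP14 line, in which doxycycline was given to the PRDM14 arrays and withheld from the others, and a short hairpin knockdown (shTet1/Tet2) stood against the control. The labels do not say how many cultures or clones each RNA came from, and they call the scramble array wild type. The stated question of the series was whether and how TET1 and TET2 act in the transcriptional response to PRDM14.

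The region is imprinted: its noncoding RNAs are made from the maternal chromosome and its protein-coding genes from the paternal one. A differentially methylated region upstream of Meg3, the IG-DMR, sets that choice, and DNA methylation there silences the noncoding RNAs. Meg3 (Gtl2), Rian and Mirg are thought to be parts of one long maternal transcription unit, in which Rian carries C/D box small nucleolar RNAs and Mirg carries microRNAs. Dlk1 encodes a transmembrane protein related to the Notch ligands and is a paternally expressed gene. In pluripotent mouse lines the noncoding RNAs are often used to tell lines with intact imprinting of the region from lines in which it is silenced.

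With 1 array per condition no difference could be set against a spread between replicates, so no test was made and no p-value is given. The genes were also selected on results of these arrays, chiefly the PRDM14 difference of Rian in knockdown cells, with all 4 arrays in view, so that all their values are a description. Levels are log2 probe set signals, on which a difference of 1 is 2-fold. A probe set was called higher or lower when 2 arrays differed by at least 2-fold and the brighter one reached an expression filter of 5.395, the median signal over all arrays and named probe sets. Each probe set is given on its own, because those of 1 gene disagreed in size.

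The start regions of the member genes are shown because Meg3 carries the promoter of the maternal transcripts, while the annotated starts of Rian and Mirg lie within that unit. They are RefSeq windows in build GRCm38.p6, from 250 bases before to 50 bases after an annotated start, all on the plus strand and written 5′ to 3′. Capitals mark CG dinucleotides in every window, and the motifs TGACGTCA and TATAAA on either strand, whose reverse TTTATA overlaps TATAAA in Meg3.
Meg3 chr12:109540746-109541045: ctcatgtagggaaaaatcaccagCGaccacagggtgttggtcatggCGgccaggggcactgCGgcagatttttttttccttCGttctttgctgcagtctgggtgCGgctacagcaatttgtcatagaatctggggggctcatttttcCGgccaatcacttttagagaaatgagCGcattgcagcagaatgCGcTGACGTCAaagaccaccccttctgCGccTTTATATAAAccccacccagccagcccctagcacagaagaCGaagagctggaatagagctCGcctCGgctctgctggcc
Rian chr12:109603695-109603994: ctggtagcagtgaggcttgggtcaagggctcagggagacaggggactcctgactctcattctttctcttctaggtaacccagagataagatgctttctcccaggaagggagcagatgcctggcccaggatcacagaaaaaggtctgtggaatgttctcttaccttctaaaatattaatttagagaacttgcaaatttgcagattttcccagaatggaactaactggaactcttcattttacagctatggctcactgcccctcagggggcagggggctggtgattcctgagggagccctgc
Mirg chr12:109734731-109735030: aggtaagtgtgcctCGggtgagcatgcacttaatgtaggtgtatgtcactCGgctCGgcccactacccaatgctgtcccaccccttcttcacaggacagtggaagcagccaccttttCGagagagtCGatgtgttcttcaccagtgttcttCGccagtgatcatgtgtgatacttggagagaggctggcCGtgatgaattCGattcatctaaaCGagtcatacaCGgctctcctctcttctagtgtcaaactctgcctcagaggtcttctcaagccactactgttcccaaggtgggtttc
Dlk1 chr12:109452573-109452872: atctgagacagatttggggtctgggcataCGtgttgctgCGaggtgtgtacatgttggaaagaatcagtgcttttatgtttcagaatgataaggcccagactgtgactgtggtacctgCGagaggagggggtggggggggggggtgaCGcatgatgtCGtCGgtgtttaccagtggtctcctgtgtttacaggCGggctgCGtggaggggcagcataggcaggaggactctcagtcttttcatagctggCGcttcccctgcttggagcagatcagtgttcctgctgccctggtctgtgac

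The first Meg3 window held 13 CG dinucleotides, the Mirg window 10, the Dlk1 window 9 and the Rian window 0, against a median of 7 over the 32851 windows of the table. A window at a second annotated Meg3 start held 1. The palindrome TGACGTCA, the cyclic AMP response element, began 57 bases before the Meg3 start, and TATAAA began 25 bases before it. In all windows, TGACGTCA was found in 1.79% and TATAAA, on either strand, in 13.6%. The hexamer TGCCGC, known as the core of the ZFP57 recognition sequence, was searched on both strands as well and was found in 11.6% of windows. The first Meg3 window held it once, as GCGGCA, and the windows of Rian, Mirg and Dlk1 held none of the 3 motifs. A match describes these letters and is not evidence of binding.

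**Figure D1:**
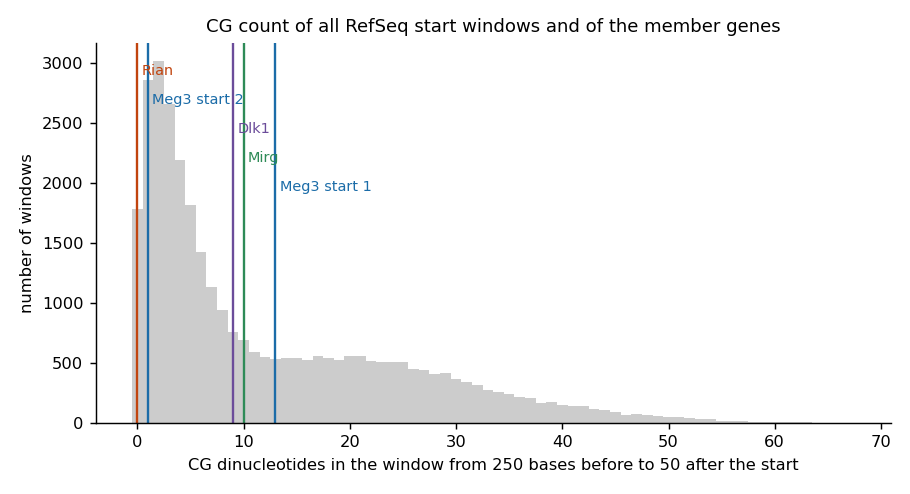
The horizontal axis is the number of CG dinucleotides in a RefSeq start window and the bars give the number of windows with that count; vertical lines mark the windows of Meg3 (both starts), Mirg, Dlk1 and Rian. The first Meg3 window, with 13, lies furthest right of the 5, and the Rian window lies at 0.

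MicroRNAs inside the Rian and Mirg spans are shown because Mirg is known as a microRNA host. Rian is known for its small nucleolar RNAs and holds a few microRNA genes as well. The array values here are of the host transcripts, and no mature microRNA was measured. RefSeq places 3 microRNA genes within Rian and 10 within Mirg, and 29 more between them. Examples follow in build GRCm38.p6, plus strand, 5′ to 3′, with the seed (bases 2 to 8) in capitals, 2 from Rian and then 2 from Mirg.
miR-370-3p chr12:109618305-109618326: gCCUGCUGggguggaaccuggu
miR-341-3p chr12:109611556-109611576: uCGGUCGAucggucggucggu
miR-154-5p chr12:109738438-109738459: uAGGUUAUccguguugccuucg
miR-410-3p chr12:109743764-109743784: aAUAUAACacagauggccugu

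These 4 seeds differ from each other. From Meg3 to Mirg the table listed 105 differently named mature microRNAs with 97 seeds, of which 8 were shared by names that differ. One shared seed lies wholly within Mirg, between miR-453 and miR-496a-5p.

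All 9 pluripotency genes reached the filter, with Pou5f1 at 11.10 to 11.35 and Nanog at 9.56 to 10.20. Klf4, a pluripotency factor, was the 1 of them called: it read 6.36 on the knockdown array with PRDM14, against 7.58 on the scramble array with PRDM14 (−1.21, and −2.24 by its other probe set), and its PRDM14 differences were −0.61 in knockdown and 0.44 in scramble cells. Of 8 fibroblast and feeder markers, 1 reached it (Pdgfra, at most 5.56), and the summed linear signal of that list was 171, 169, 170 and 163 on the knockdown with PRDM14, knockdown, scramble with PRDM14 and scramble arrays. The primitive endoderm list, with 4 of 8 genes at the filter, summed to 791, 902, 893 and 590 in the same order, led by Sparc (8.42 to 9.35). The trophectoderm list, also with 4 of 8 at the filter, summed to 559, 416, 395 and 399. Its highest gene on the knockdown array with PRDM14 was Krt18, a keratin, which read 7.74 there, against 6.59 on the knockdown array. Krt18 read 6.40 on the scramble array with PRDM14, against 6.46 on the scramble array. Another gene of the list was higher than Krt18 on every array but the knockdown array with PRDM14. The neuroectoderm and mesoderm list, with 4 of 8 measured genes at the filter, summed to 440, 429, 524 and 445. In it Pax6, a neural transcription factor, read 5.69 on the knockdown array with PRDM14, against 7.12 on the scramble array with PRDM14. Between the knockdown and scramble arrays with PRDM14, 65 of all 10322 genes tested were 2-fold higher and 49 lower. The part of these markers in the values below was not tested. Tet2, by its brighter probe set, read 8.15 on the knockdown array with PRDM14, against 9.33 on the scramble array with PRDM14, and 7.50 on the knockdown array, against 8.46 on the scramble array. Prdm14 was below the filter on all 4 arrays, so directions with PRDM14 rest on the labels, and Tet1 was not analysed here. The knockdown arrays with and without PRDM14 lay at root mean square distances of 0.201 and 0.202 from the mean of the others, against 0.256 and 0.283 for the scramble arrays with and without PRDM14. The PRDM14 difference in knockdown cells uses neither of the scramble arrays, which stood further apart.

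Across the members, Meg3 and Rian each had probe sets that were clearly brighter on the PRDM14 arrays and probe sets that hardly differed. Of the 16, 6 differed by at least 1.5-fold in a PRDM14 comparison, 4 of Meg3 and 2 of Rian. All 6 were higher with PRDM14 in both backgrounds. This division was made after the values were seen and without the filter. The share of all probe sets that pass it was not determined, so nothing is read from the count. Over all probe sets tested, the median size of the PRDM14 difference was 0.09 in knockdown and 0.15 in scramble cells. The other 10 members stayed between −0.05 and 0.37 in knockdown cells and between −0.01 and 0.55 in scramble cells. Of the 16 probe sets 10 reached the filter on at least 1 array and 7 on all 4.

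**Figure D2:**
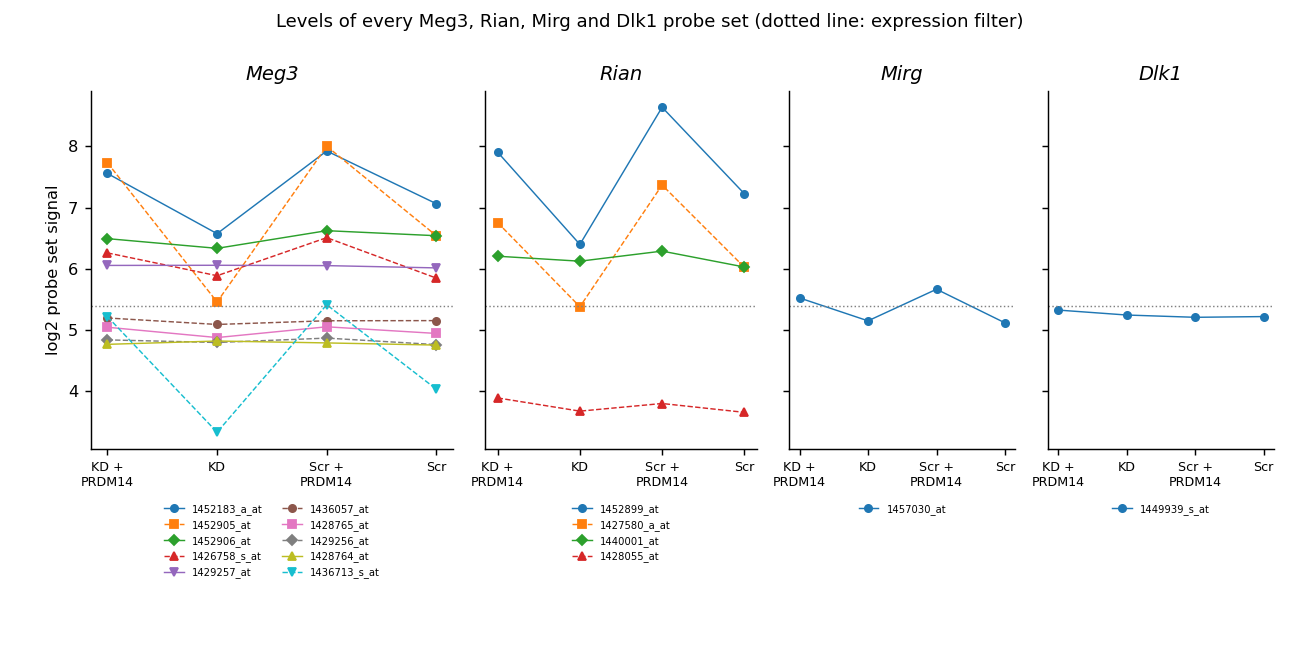
Log2 signal (vertical axis) of each of the 16 probe sets on the knockdown with PRDM14 (KD + PRDM14), knockdown (KD), scramble with PRDM14 (Scr + PRDM14) and scramble (Scr) arrays, 1 point per array, in a panel for each gene; lines only join points of a probe set and the dotted line is the filter at 5.395. The brightest Rian probe set swings between 8.64 and 6.40, while Dlk1 stays between 5.21 and 5.32.

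Meg3, the gene nearest the IG-DMR among the noncoding ones, was led by probe set 1452905_PM_at. It read 7.73 on the knockdown array with PRDM14, against 5.46 on the knockdown array, and 8.002 on the scramble array with PRDM14, against 6.54 on the scramble array. The log2 differences were 2.27 in knockdown cells (4.84-fold) and 1.46 in scramble cells (2.75-fold). Both PRDM14 arrays were above both others, and the knockdown array was the lowest of the 4. The knockdown difference was the third highest among the 14788 probe sets tested there, and the scramble difference was the 53rd among 14900. The genes were chosen with PRDM14 differences in view, so nothing is read from these ranks.

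The brightest Meg3 probe set by its mean, 1452183_PM_a_at, had the same order of arrays with a smaller span. It read 7.56 on the knockdown array with PRDM14, against 6.57 on the knockdown array, and 7.92 on the scramble array with PRDM14, against 7.06 on the scramble array. Its differences of 0.98 and 0.86 were just under 2-fold. The probe set 1436713_PM_s_at was dim and swung widely: it read 5.22 on the knockdown array with PRDM14, against 3.33 on the knockdown array, and 5.41 on the scramble array with PRDM14, against 4.03 on the scramble array. Its differences were 1.89 and 1.38. It reached the filter on the scramble array with PRDM14 alone and so was called in scramble cells and not assessed by the rule in knockdown cells. With low values set to the filter, its scramble difference was 0.02. The fourth, 1426758_PM_s_at, read 6.26 on the knockdown array with PRDM14, against 5.89 on the knockdown array, and 6.51 on the scramble array with PRDM14, against 5.85 on the scramble array, with differences of 0.37 and 0.66.

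The other 6 Meg3 probe sets differed by −0.05 to 0.17 with PRDM14 in knockdown cells and by 0.00 to 0.11 in scramble cells. They did not all lie below the filter, though nonspecific control probe sets of these arrays read up to 8.20. A level above the filter therefore does not show that a probe set detected its transcript. The probe set 1452906_PM_at read 6.49 on the knockdown array with PRDM14, against 6.33 on the knockdown array, and 6.62 on the scramble array with PRDM14, against 6.54 on the scramble array. The probe set 1429257_PM_at lay between 6.01 and 6.06 on all 4 arrays, and the remaining 4 lay below the filter throughout. The annotation gives 6 target sequence records for the 10 Meg3 probe sets. The leading 1452905_PM_at shares its record with 1428764_PM_at and 1428765_PM_at, which read 4.75 to 5.05, and the pair 1452183_PM_a_at and 1426758_PM_s_at share another. Where each probe set lies on the transcript was not analysed here, so no exon or isoform is given for it.

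Rian, the host of small nucleolar RNAs downstream of Meg3, had 2 probe sets that gave nearly the same differences. The brighter, 1452899_PM_at, read 7.90 on the knockdown array with PRDM14, against 6.40 on the knockdown array, and 8.64 on the scramble array with PRDM14, against 7.23 on the scramble array. Its differences were 1.51 in knockdown cells (2.84-fold) and 1.41 in scramble cells (2.66-fold). The second, 1427580_PM_a_at, read 6.75 on the knockdown array with PRDM14, against 5.38 on the knockdown array, and 7.37 on the scramble array with PRDM14, against 6.02 on the scramble array, with differences of 1.37 and 1.34. In both, the scramble array with PRDM14 was the highest and the knockdown array the lowest. The third, 1440001_PM_at, read 6.20 on the knockdown array with PRDM14, against 6.12 on the knockdown array, and 6.29 on the scramble array with PRDM14, against 6.03 on the scramble array. It differed by 0.08 and 0.26 at a level above the filter on every array, which does not by itself show that it detected Rian. The fourth, 1428055_PM_at, lay between 3.65 and 3.89, below the filter, and differed by 0.22 and 0.14.

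Mirg, the host of the microRNA cluster at the far end of the maternal unit, had 1 probe set, 1457030_PM_at, near the filter. It read 5.52 on the knockdown array with PRDM14, against 5.15 on the knockdown array, and 5.67 on the scramble array with PRDM14, against 5.12 on the scramble array. The differences were 0.37 and 0.55, both under 1.5-fold. Both PRDM14 arrays were above both others, and only they reached the filter.

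Dlk1, the paternally expressed protein-coding member, read 5.32 on the knockdown array with PRDM14, against 5.24 on the knockdown array, and 5.21 on the scramble array with PRDM14, against 5.22 on the scramble array. Its differences were 0.08 and −0.01, and it did not reach the filter on any array. The nonspecific control probe sets of these arrays read from 2.78 to 8.20, depending on their GC content, so a level near 5 does not show whether Dlk1 was detected.

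By the call rule, 3 of the 16 member probe sets were at least 2-fold higher with PRDM14 in knockdown cells, where 0.345% of the probe sets tested were. They were 1452905_PM_at of Meg3 and the 2 leading Rian probe sets. In scramble cells 4 were, with 1436713_PM_s_at added, where 1.13% of all were. No member was 2-fold lower in either, where 0.237% and 0.872% of all were. Since the genes were chosen with these comparisons in view, nothing is read from those shares. The median difference of all 16 was 0.19 in knockdown and 0.20 in scramble cells, beside −0.005 and 0.004 over all named probe sets.

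**Figure D3:**
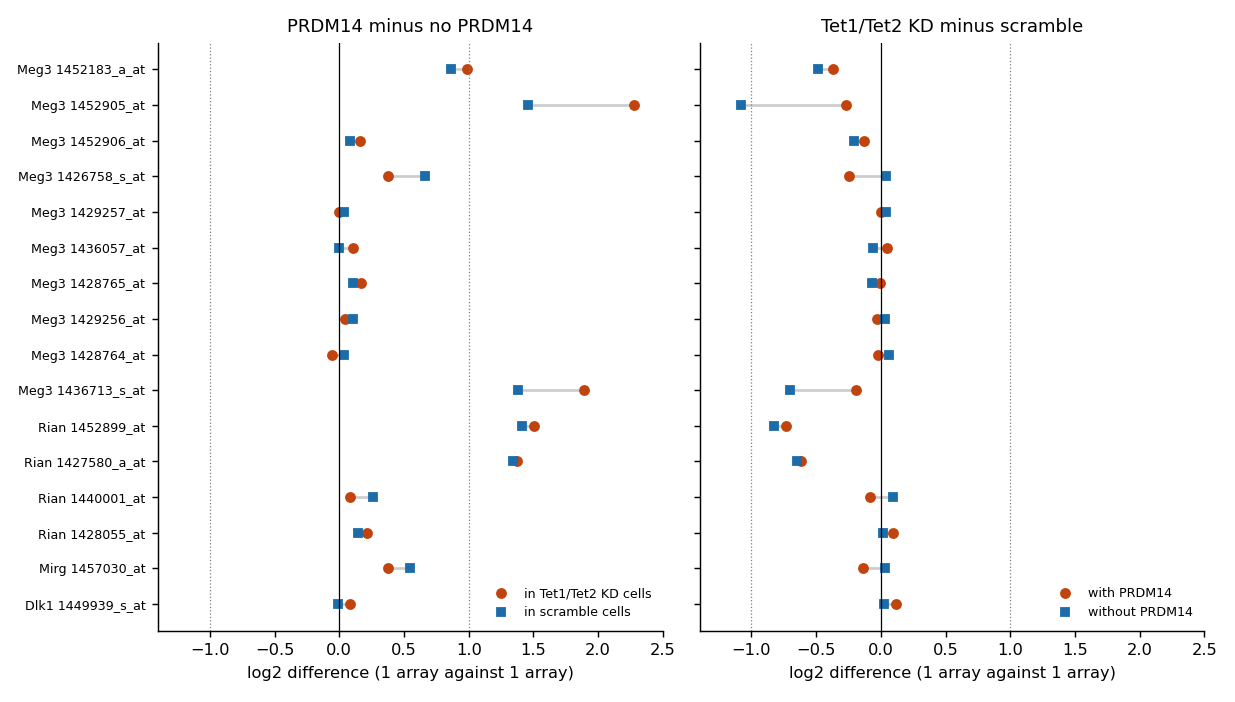
Log2 differences (horizontal axis) for each of the 16 probe sets (rows): left, PRDM14 minus no PRDM14 in knockdown (circles) and scramble cells (squares); right, knockdown minus scramble with (circles) and without PRDM14 (squares); dotted lines mark 2-fold. On the left 4 probe sets lie at 1.34 or above in both backgrounds, and on the right no circle passes 2-fold.

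The PRDM14 differences of the Meg3 probe sets lay far apart. Among the 6 Meg3 probe sets at the filter, the PRDM14 difference spanned 2.28 in knockdown cells and 1.42 in scramble cells. None of the 18 genes with 6 such probe sets, Meg3 included, had a wider span in either comparison, and their medians were 0.25 and 0.42. Rian, with 3 at the filter, spanned 1.43 and 1.15, and of 682 genes with as many, 2 and 8 had a wider span. The genes were chosen with these differences in view, and a large difference beside a flat probe set gives a wide span. Nothing is therefore read from these places. Between the knockdown and scramble arrays, Meg3 spanned 0.37 with PRDM14 and 1.13 without it, and 5 and 0 of the 18 had a wider span. Rian spanned 0.65 and 0.92 there, and 18 and 11 of the 682 had a wider span. Over all 3322 genes with at least 2 probe sets at the filter, the probe sets of 1 gene differed with a pooled SD of 0.15 in knockdown and 0.22 in scramble cells. This is a technical yardstick that covers neither cultures nor arrays.

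**Figure D4:**
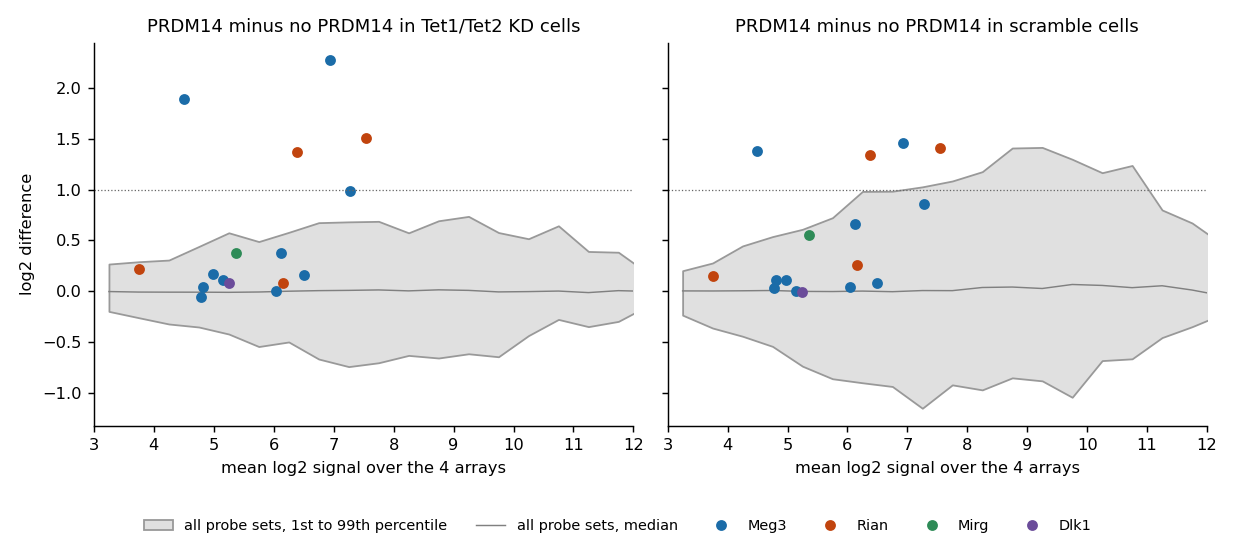
Mean log2 signal over the 4 arrays (horizontal axis) against the log2 PRDM14 difference (vertical axis) in knockdown cells (left) and scramble cells (right), for the 16 member probe sets (points, coloured by gene) over the band from the 1st to the 99th percentile of all named probe sets at that level; the dotted line marks 2-fold. The leading Meg3 probe set stands at 2.27 in the left panel, far above the band, while most Meg3 points lie inside it.

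Of the 6 probe sets that differed most with PRDM14, all but 1426758_PM_s_at of Meg3 (0.04 without PRDM14) read lower on the knockdown arrays than on the scramble arrays, with and without PRDM14. Without PRDM14, 1452905_PM_at of Meg3 differed by −1.08 between the knockdown and scramble arrays (5.46 against 6.54). That was the 1 member called, in a comparison where 0.424% of the probe sets tested were at least 2-fold lower. The leading Rian probe sets differed by −0.83 and −0.65, 1436713_PM_s_at of Meg3 by −0.70 and 1452183_PM_a_at by −0.49. The remaining 11 members lay between −0.21 and 0.09, with Mirg at 0.03 and Dlk1 at 0.03. With PRDM14, the 2 Rian probe sets differed by −0.73 (7.90 on the knockdown array, against 8.64 on the scramble array) and −0.61 (6.75 against 7.37). There the 4 leading Meg3 probe sets differed by −0.37 to −0.19, and Mirg by −0.14. No member was called with PRDM14, where 0.472% of all were 2-fold lower. The 2 leading Rian probe sets thus had nearly the same difference in both settings, while 1440001_PM_at had −0.08 with PRDM14 and 0.09 without, and 1428055_PM_at 0.09 and 0.02. The leading Meg3 probe set had −0.27 with PRDM14 and −1.08 without.

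The dependence of the PRDM14 difference on the knockdown was the difference in knockdown cells minus that in scramble cells. It was 0.81 for 1452905_PM_at of Meg3 and 0.51 for 1436713_PM_s_at, and 0.12 for 1452183_PM_a_at and −0.29 for 1426758_PM_s_at. The 2 leading Rian probe sets gave 0.09 and 0.03, Mirg −0.18 and Dlk1 0.09. Thus none reached 2-fold, where 2.17% of the probe sets tested did in either direction, and the Meg3 probe sets did not share a sign. For this quantity the probe sets of 1 gene had a pooled SD of 0.25. In 6 of the 16 members, 4 of Meg3 and 2 of Rian, the order of levels from high to low was scramble with PRDM14, knockdown with PRDM14, scramble, knockdown. That order was found in 4.01% of the 15184 probe sets that reached the filter, and 1 of the 6, 1428765_PM_at, lay below the filter and spanned 0.18. The genes were chosen with the PRDM14 difference in view, which favours an order with both PRDM14 arrays on top. The share also leaves out probe sets that never reached the filter, as 6 of the 16 members did not. Nothing is therefore read from it.

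Other transcripts of the region were covered thinly. Between Dlk1 and Dio3, RefSeq lists 103 genes, most of them microRNAs (61) and small nucleolar RNAs (19), and 6 of them had a named probe set here, the 4 members, Dio3os and 3110009F21Rik. Dio3os, the antisense RNA at the Dio3 end, read 6.36 on the knockdown array with PRDM14, against 6.35 on the knockdown array, and 6.45 on the scramble array with PRDM14, against 6.47 on the scramble array. Its PRDM14 differences were 0.02 and −0.02. The noncoding 3110009F21Rik lay between 3.67 and 3.76, below the filter. Of 14 names listed for genes that flank the region, 12 had probe sets, and none was 2-fold higher or lower by its brightest probe set in any pairwise comparison. Few of all genes were either (113 higher and 104 lower of 10366 with PRDM14 in scramble cells), so nothing is read from that. Their median PRDM14 differences were −0.005 in knockdown and −0.03 in scramble cells. Dync1h1, the dynein heavy chain, came nearest, at 0.07 in knockdown and −0.77 in scramble cells, and read highest, 9.37, on the scramble array.

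Genes known to act in DNA methylation, its removal, chromatin silencing or imprinting were listed beside the members. Of 22 listed, 20 were measured, all at the filter. With PRDM14, 1 was at least 2-fold higher and 1 lower in each background, Dnmt3b and Dppa3 in both. Over all genes tested, 37 of 10311 were higher and 28 lower in knockdown cells, and 113 and 104 of 10366 in scramble cells. The list was chosen with earlier results known, so nothing is read from its counts. Dnmt3b, a de novo DNA methyltransferase, read 10.61 on the knockdown array with PRDM14, against 8.83 on the knockdown array, and 10.21 on the scramble array with PRDM14, against 8.89 on the scramble array. Dppa3 (Stella), which protects DNA methylation of the maternal genome in the zygote, read 9.12 on the knockdown array with PRDM14, against 10.53 on the knockdown array, and 7.17 on the scramble array with PRDM14, against 9.68 on the scramble array. Dnmt3l, the catalytically inactive cofactor of the de novo enzymes, differed by 0.72 in knockdown and 0.95 in scramble cells. Uhrf1, the factor that brings the maintenance methyltransferase to DNA, differed by 0.45 and 0.90, Tet2 by 0.65 and 0.86, and Aff3, a protein known to bind the IG-DMR, by 0.25 and −0.71. Between the knockdown and scramble arrays with PRDM14, Dppa3 was 2-fold higher (1.95) and Tet2, itself a target of the knockdown, 2-fold lower (−1.18). The PRDM14 difference in knockdown cells minus that in scramble cells was 1.09 for Dppa3 and 1.02 for Smchd1, a chromosomal protein with a role in imprinting. The list's median difference was 0.18 in knockdown and 0.19 in scramble cells, beside −0.005 and 0.003 over all 17097 genes. Their part in the Meg3 and Rian values was not tested.

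Imprinted genes elsewhere in the genome did not pass 2-fold with PRDM14 in either background. Of 38 listed, 28 were measured and 23 reached the filter. Over all genes tested, 37 of 10311 were 2-fold higher and 28 lower in knockdown cells, and 113 and 104 of 10366 in scramble cells. With so few genes passing anywhere, nothing is read from their absence in this list. The median PRDM14 difference was 0.03 in knockdown and 0.11 in scramble cells. The largest among them were Phlda2, a placental growth regulator, at 0.59 and 0.24, Grb10, an adaptor that restrains growth, at 0.72 and 0.16, Mcts2 at 0.22 and 0.97, and Copg2 at 0.02 and −0.95. Phlda2 was the 1 gene called in any pairwise comparison, at 1.09 between the knockdown and scramble arrays with PRDM14 (11.10 against 10.01). In that comparison 65 of all 10322 genes tested were 2-fold higher and 49 lower, so nothing is read from this 1 call.

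Genes with a pattern like that of the members were sought over the 4 arrays, by the root mean square distance between log2 profiles after each probe set's mean was taken off. The search ran over the 15183 other probe sets at the filter, and 4 arrays leave room for many unrelated matches. For the leading Rian probe set the nearest was the second Rian probe set, at 0.09, followed by 1436713_PM_s_at of Meg3 at 0.21, and 1452905_PM_at of Meg3 was in 5th place at 0.28. The nearest other genes were Dpys, a dihydropyrimidinase (0.22), Hmgxb4, an HMG-box protein (0.24), and Otx2, a homeobox factor of the epiblast (0.28). For the brightest Meg3 probe set they were Lpar4, a lysophosphatidic acid receptor, Myo10, an unconventional myosin, and Tenm4, a teneurin, each at 0.07. Among members, the second Rian probe set came nearest there, in place 55 at 0.24. It was followed by 1426758_PM_s_at of Meg3 in place 94 at 0.28 and Mirg in place 150 at 0.31. The leading Rian probe set was in 191st place, at 0.32, and 1436713_PM_s_at of Meg3 in place 475 at 0.37. The Meg3 probe set with the widest span, 1452905_PM_at, was in place 7593 at 0.52. For Mirg the nearest other genes were Ell2, a transcription elongation factor (0.01), Zdhhc15, a palmitoyltransferase (0.02), and Tgm1, a transglutaminase (0.03). Among members, 1426758_PM_s_at of Meg3 came nearest to Mirg, in 16th place at 0.05, and the leading Rian probe set was in place 14978. The Mirg profile had a smaller span (0.55, against 2.24 for the leading Rian probe set).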

How the data were processed

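The deposited values were log2 signals per probe set, already normalised between arrays (array medians between 5.09 and 5.11). The submitters' processing notes name Affymetrix Expression Console. Its version, its summary method and any background correction were not given in the sources used here. How far low signals were compressed is therefore unknown. Labelling used a GeneChip 3′ IVT Express kit, per the labels' protocols. Base 2 was taken from the range of the values, 2.78 to 13.2. The array values name no genome build.

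Of 45141 probe sets, 104 were controls. The platform annotation named 1 gene for 28898, several for 551 and none for 15588. The Entrez identifiers of 28689 named probe sets were found in RefSeq (GRCm38.p6). Sequences are RefSeq's in that build, and all 4 members had start windows.

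Groups were taken from sample titles. Differences were computed per probe set with python 3.11.15, pandas 2.3.3 and numpy 2.4.6, and the steps were tested on simulated data. Fixed lists were counted by each gene's brightest probe set. Text names were all member probe sets, the members of a list called in a pairwise comparison and up to 4 others with the largest PRDM14 differences, and the 3 genes most alike in pattern. Members and lists were chosen with earlier results of these data known. The division of members at 1.5-fold, 3110009F21Rik, Smchd1, Pou5f1, Nanog, Pdgfra and the printed microRNAs were chosen after values were seen. Alternatives were thresholds of 1.5- and 3-fold, no filter, a filter at the 75th percentile (6.823), raised low values, centred arrays, probe sets without a suffix, and gene means or medians. No sample column was left out.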

Additional observations from a re-analysis of the deposited data

How the results depend on the processing

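No paired analysis was possible because each condition has 1 array and no test was made. With 1 array per condition, the number of arrays limits every value, and signal over background was not determined per probe set. At a 3-fold threshold, 1 member probe set was called with PRDM14 in knockdown cells (3 at 2-fold), 0 in scramble cells (4 at 2-fold) and 0 in the knockdown comparison without PRDM14 (1 at 2-fold). At 1.5-fold the knockdown comparison called 2 with PRDM14 (0 at 2-fold) and 3 without it (1 at 2-fold), and the dependence called 1 (0 at 2-fold). With the filter at the 75th percentile, the knockdown comparison without PRDM14 called 0. With the 11 probe sets that carry no suffix, 2 were called with PRDM14 in scramble cells. The lower or higher counts follow from the stricter or looser rule itself. Shares over all probe sets were determined only at 2-fold with the main filter, so nothing is read from the counts at other settings. The other counts stayed within 1.5 times. Of 200 recomputed values, 0 changed the sign of a called difference. Most of the 200 belonged to differences that were not called, where a change of sign was not counted. With raised low values the dependence of 1436713_PM_s_at went from 0.51 to −0.02. Centring moved none of 80 beyond the spread between probe sets, but the array medians were nearly equal, so it could move little. Raised low values moved 9 of 80, and the mean or the median of a gene's probe sets each moved 8 of 20. Mirg and Dlk1 have 1 probe set each, so their values could not move under these settings. All 8 belonged to Meg3 or Rian, which moved in every pairwise comparison and stayed the same only for the dependence.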
